A study of Mus musculus with 12 samples.

Results

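The cytosolic ribosomal protein genes of the mouse were taken as the rows whose mapped symbol names a numbered large or small subunit protein (Rpl or Rps with a number and at most 1 of the letters a, x, l or y), a stalk protein (Rplp0, Rplp1 or Rplp2) or Rpsa. The deposited table listed 24432 genes. Of these 81 matched, and Rps4l was dropped because the annotation calls it a processed pseudogene. The set therefore had 80 genes, 49 of the large subunit and 31 of the small subunit. For testing a member had to reach 1 FPKM in 3 or more of the 12 libraries, which 77 did (46 large, 31 small). The other 3, Rpl10l, Rpl39l and Rpl3l, are paralogs of Rpl10, Rpl39 and Rpl3 and are described separately. Symbols were chosen by name, with no measured value in the choice.

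The series measured bulk RNA in kidney tumors without Lats1 and Lats2, the kinases of the Hippo pathway that hold back the co-activators Yap and Taz. The allograft tumors came from Lats1-/-;Lats2-/- cells of mixed source that were placed under the renal capsule of NOD/scid hosts 6 to 8 weeks old, and were taken 6 weeks later. NOD/scid mice lack T and B cells. Lung metastases and primary tumors came from Slc34a1CreERT2;Lats1/2flox/flox mice of mixed background, given 3 injections of tamoxifen at 1 month of age and examined 4 months after tamoxifen. Slc34a1 encodes a phosphate transporter of the proximal tubule, so this driver limits Cre to proximal tubule cells. The proximal tubule cells came from Slc34a1CreERT2;Lats1c/c;Lats2c/+;RosaTomato mice. Their columns are headed as wild type although the mice carried Cre and conditional Lats alleles, and no source used here says whether those alleles had recombined. Each group had 3 libraries. No label ties the libraries of a group to separate animals. The p-values therefore reflect the spread among these libraries alone, part or all of which may be technical.

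Each cytosolic ribosome holds 1 copy of almost every one of these proteins, built onto ribosomal RNA in the nucleolus, and their mRNAs are among the most abundant of any cell. Most of these mRNAs begin with a run of pyrimidines, the 5' terminal oligopyrimidine or TOP motif, which couples their translation to mTOR signalling through the RNA-binding protein Larp1. Demand for ribosomes follows growth and division, and the genes are transcribed in concert. Levels below are FPKM (fragments scaled by transcript length and library total) as deposited by the authors. Changes are log2 differences of FPKM + 1 with their SE, which understates the change of genes with low values. A gene is said to be called, or to rise or fall, at an adjusted p under 0.05 in limma's test over all 16313 genes of a comparison.

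Promoter windows are shown because the TOP motif, where present, lies at the start of the mRNA. RefSeq entries (GRCm38.p6) existed for 60 of the 80 members, and each window below runs from 40 bases before the annotated start site to 20 bases from it onward, 5' to 3' on the gene's strand. Capitals mark the longest run of C and T letters that begins with C within 5 bases of the start. Rpl27a, of the large subunit, lies at chr7:109519155-109519214 on the plus strand and had a run of 20. Rpl15, of the large subunit, lies at chr14:18270967-18271026 on the minus strand and had 17. Rps18, of the small subunit, lies at chr17:33955646-33955705 on the minus strand and had 11. Rps6, the substrate of the S6 kinases, lies at chr4:86857348-86857407 on the minus strand and had 10. Rplp2, a stalk protein, lies at chr7:141447611-141447670 on the plus strand and had 9. Rps27, of the small subunit, lies at chr3:90213629-90213688 on the minus strand and had 9. Rpl34, of the large subunit, lies at chr3:130730318-130730377 on the minus strand and had 8. Rpl41, the smallest member, lies at chr10:128549149-128549208 on the minus strand and had only 3.
Rpl27a: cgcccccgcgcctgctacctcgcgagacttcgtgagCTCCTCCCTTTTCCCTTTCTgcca
Rpl15: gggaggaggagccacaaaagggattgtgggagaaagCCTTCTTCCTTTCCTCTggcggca
Rps18: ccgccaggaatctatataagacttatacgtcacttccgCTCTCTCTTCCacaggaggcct
Rps6: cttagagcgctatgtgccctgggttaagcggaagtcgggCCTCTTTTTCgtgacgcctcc
Rplp2: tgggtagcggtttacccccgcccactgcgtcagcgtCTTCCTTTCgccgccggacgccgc
Rps27: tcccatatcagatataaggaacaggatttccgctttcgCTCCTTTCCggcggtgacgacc
Rpl34: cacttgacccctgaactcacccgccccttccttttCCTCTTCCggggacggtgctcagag
Rpl41: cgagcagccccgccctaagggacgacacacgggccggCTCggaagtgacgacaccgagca

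A run of at least 5 letters stood at the start of 28 of 60 members (46.7%), against 23.2% of 11963 other tested genes with an entry. A run of at least 8 stood at 20 members (33.3%), against 5.63% of the other genes. On the opposite strand the order was reversed: 8 members (13.3%) against 27.8% of other genes had a run of at least 5, and 2 members (3.33%) against 7.29% had a run of at least 8. These are counts of letters at annotated starts, and a short run in such a window says nothing of the mRNA's true first base.

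**Figure D1:**
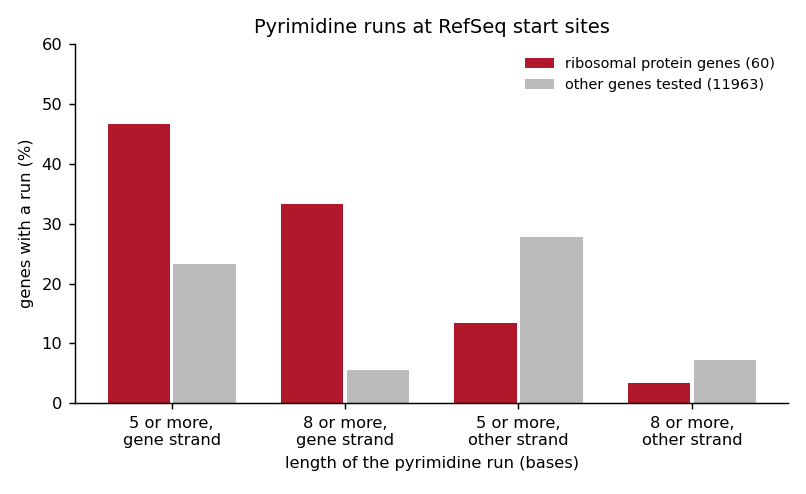
The bars give the percentage of genes whose annotated start site carries a run of C and T letters of at least 5 or at least 8, for the 60 members with a promoter entry and for 11963 other tested genes, on the gene's strand and on the other strand. On the gene's strand the members' bars stand at 46.7% and 33.3%, against 23.2% and 5.63% for other genes.

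The libraries differed in ways that bear on every level below. Column sums ran from 706093 FPKM in a proximal tubule library to 2.53e+06 in an allograft tumor, and Mir6236, a feature overlapping ribosomal RNA sequence, held 23.5 to 42.8% of the sum in each tumor library but at most 0.00775% in proximal tubule cells. Depth estimated from the spacing of low values was 12.75 to 20.65 M fragments (M, mega) in tumors and 5.35 to 7.05 M in proximal tubule cells, where low values showed few exact steps. No source used here says whether the same tool and gene lengths produced the proximal tubule columns. Median-of-ratios size factors were 1.09 to 1.20 in tumors and 0.712 to 0.727 in proximal tubule cells, and this scaling lowered the median change of all genes against proximal tubule cells to 0.19 (allograft), 0.20 (metastasis) and 0.08 (primary), against 0.66, 0.68 and 0.59 on deposited FPKM. Proximal tubule markers (6 genes) summed to 10.2 to 29.4 FPKM in allograft tumors, 31.3 to 40.7 in metastases, 71.5, 3085 and 678 in primary tumors 1 to 3 and 4508 to 5343 in proximal tubule cells. Primary tumors 2 and 3 thus stood apart from primary tumor 1, and some of the results that rest on them are also given without them. A call printed without such a value is not shown here to hold without them.

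The level of the whole family differed between groups. Its median over the 77 tested members was 1716, 1117 and 1125 FPKM in allograft tumors 1 to 3. In lung metastases the median was 906, 803 and 777 FPKM, in primary tumors 708, 460 and 283 FPKM, and in proximal tubule cells 285, 343 and 323 FPKM. All allograft libraries were above all metastases, these were above all primary tumors, and the lowest primary tumor was below every proximal tubule library. Group means were 1319 ± 343 FPKM in allograft tumors, 829 ± 68.4 in metastases, 484 ± 214 in primary tumors and 317 ± 29.5 in proximal tubule cells (SD, n = 3 each). After median-of-ratios scaling the medians were 1485, 1009 and 1004 in allograft tumors, 817, 737 and 710 in metastases, 643, 383 and 255 in primary tumors and 392, 477 and 453 in proximal tubule cells. On that scale 2 of the 3 primary tumors lay below all proximal tubule libraries. As a share of the summed FPKM the members took 4.81 to 7.22% in allograft tumors, 4.46 to 5.03% in metastases, 1.90 to 3.91% in primary tumors and 3.53 to 3.99% in proximal tubule cells. That sum includes Mir6236, which held 23.5 to 42.8% of it in tumors and almost none in proximal tubule cells. The members' share in tumors is lowered by this, and shares without Mir6236 were not computed. In bulk samples, fewer cells of a type and less RNA per cell cannot be told apart.

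**Figure D2:**
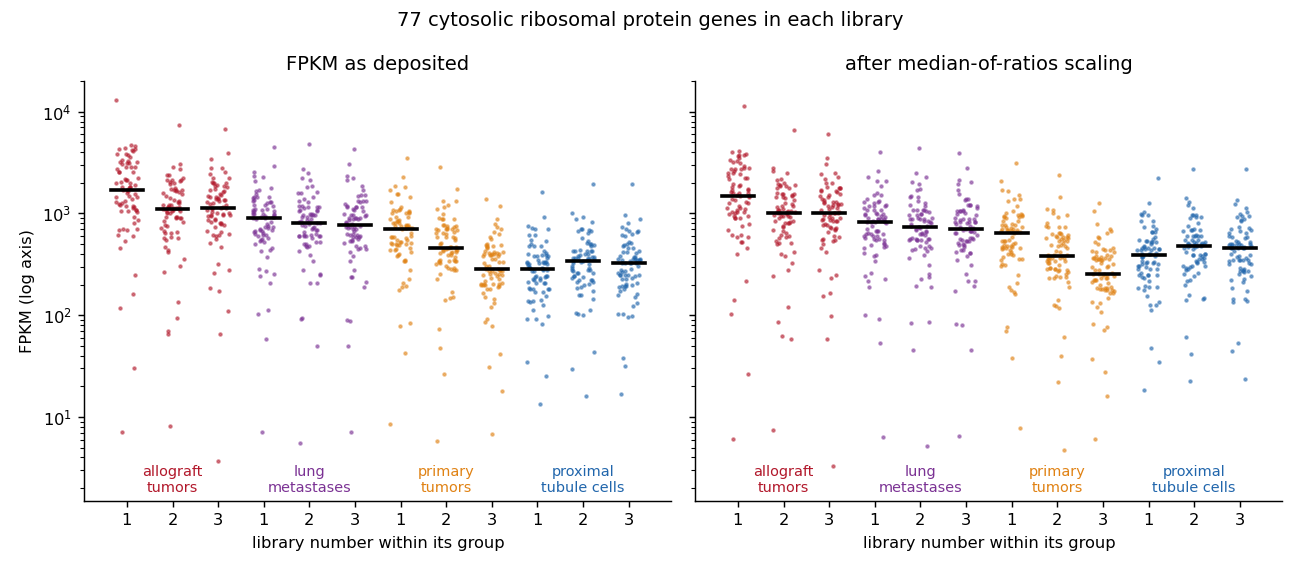
Each dot is 1 of the 77 tested members in 1 library, on a log axis, in deposited FPKM and after median-of-ratios scaling, and black bars mark the family median. The medians stand between 1117 and 1716 FPKM in allograft tumors and between 285 and 343 FPKM in proximal tubule cells, with the 3 primary tumors spread from 283 to 708.

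Allograft tumors carried more ribosomal protein mRNA than primary tumors across nearly the whole family. The rise was called for 71 of 77 members, with no member called lower (0 at an unadjusted p under 0.05), against 20.5% of all genes higher and 21.1% lower. The median change was 1.55, and that of all genes was -0.02. Every allograft library lay above every primary tumor for 71 members, against 21.2% of all genes. Rplp0 and Rpl12 were among the 3 largest rises. Median-of-ratios scaling gave the same count of 71 (20.4% of all genes higher) and a median of 1.56. The count was 29 in a fit of only these 2 groups. The share of all genes called in that fit is not given here, so fewer member calls cannot be told from a general loss of power. Without primary tumors 2 and 3 the members' median was 1.01, and it was between 0.98 and 1.81 in all settings tried.

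The 6 members without a call between allograft and primary tumors were Rpl11 (0.60, adjusted p = 0.0847), Rps27 (0.83, adjusted p = 0.0758), Rps27l (0.56, adjusted p = 0.262), Rps29 (0.37, adjusted p = 0.394), Rpl29 (-0.18, adjusted p = 0.684) and Rps16 (-1.73, adjusted p = 0.208) in the limma fit. They were named after their values had been seen. A missed call does not show that these levels were alike, and Rpl29, Rps27 and Rps16 are taken up below because copies or single libraries decide their values.

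Lung metastases lay above primary tumors for most members by range, with few calls. Every metastasis was above every primary tumor for 74 of 77 members, against 21.9% of all genes, and the median change was 0.82 (0.01 for all genes). Only 5 members were called higher, among them Rplp2, Rps10, Rps20 and Rps24, and 0 lower (62 and 0 at an unadjusted p under 0.05), against 11.3% of all genes higher and 9.59% lower. Of these, Rps20 changed by 1.00 ± 0.32 (adjusted p = 0.0473) and Rplp2 by 0.99 ± 0.30 (adjusted p = 0.0392). Median-of-ratios scaling called 20 members (12.1% of all genes higher). Leaving out primary tumor 1 raised the count to 62, and leaving out primary tumor 2, primary tumor 3 or any metastasis gave 0. The share of all genes called in these fits is not given here, so these counts may follow a general change in power. Without both primary tumors 2 and 3 the median was 0.30.

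Allograft tumors also lay above lung metastases, by less. The median change was 0.69 (0.03 for all genes), and every allograft tumor was above every metastasis for 62 members, against 24.8% of all genes. The rise was called for 14 members and a fall for 0 (35 and 1 at an unadjusted p under 0.05), against 10.4% of all genes higher and 13.3% lower. Rplp0 changed by 1.35 ± 0.31 (adjusted p = 0.011) and Rpl36 by 1.10 ± 0.26 (adjusted p = 0.0132), which lost its call without metastasis 2 (adjusted p = 0.0544) or 3 (adjusted p = 0.0593). The others included Rpl13a, Rpl18, Rpl19, Rpl21, Rpl24, Rpl36a, Rpl5, Rpl6, Rpl8, Rps10 and Rps18. After median-of-ratios scaling 12 were called (9.39% of all genes higher). The count was 4 without allograft tumor 1 or metastasis 1 and 3 without metastasis 2 or 3. It was 8 without any 1 proximal tubule library, 22 without primary tumor 1 and 25 without primary tumor 3. For these fits, too, the share of all genes called is not given.

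Against proximal tubule cells, allograft tumors were higher for 73 of 77 members and lower for Rpl29, against 52.2% of all genes higher and 16.9% lower, with a median change of 2.09. Metastases were higher for 71 and lower for Rpl29, against 54% and 14.4%, with a median of 1.41. Primary tumors were higher for 16 and lower for Rpl29, against 48.2% and 4.9%, and their median was 0.59, as was that of all genes. These 3 comparisons share the proximal tubule libraries. Scaling set much of this: median-of-ratios values gave 70 higher for allograft tumors (median 1.45, 37.4% of all genes higher), 41 for metastases (median 0.80, 37.4%) and 0 for primary tumors (median -0.06, 25.5%, with 1 member at an unadjusted p under 0.05). Rescaling to a fixed sum (TPM) gave 36 members higher in allograft tumors (21.5% of all genes), 9 in metastases (27.7%) and 0 in primary tumors (18.6%). The median in primary tumors was then -0.52, and 16 of 77 members were called lower, against 33.1% of all genes. The fixed sum includes Mir6236, which lowers the TPM of all other genes in tumors relative to proximal tubule cells. The median change in allograft tumors and metastases stayed above 0 under all scalings tried, and that in primary tumors did not.

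Not every library of a group shared in these ranges. All allograft tumors were above all proximal tubule libraries for 74 members (55.9% of all genes), all metastases for 76 (62.7%) and all primary tumors for 25 (56.7%). After median-of-ratios scaling the counts were 72 (40.7%), 73 (45%) and 1 (31.7%). The 16 members called in primary tumors were Rpl12, Rpl17, Rpl19, Rpl21, Rpl27a, Rpl3, Rpl31, Rpl34, Rpl35a, Rpl7a, Rps10, Rps12, Rps15a, Rps24, Rps27 and Rpsa. Their number ran from 2, without primary tumor 1 or proximal tubule library 1, to 50, without primary tumor 3. It was 6 without primary tumor 2 or proximal tubule library 3, 4 without proximal tubule library 2, 8 or 9 without any 1 metastasis and 24 without allograft tumor 1. Without both primary tumors 2 and 3 the members' median change was 1.09. The share of all genes called when libraries are left out is not given here, so these counts may follow a general change in power.

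**Figure D3:**
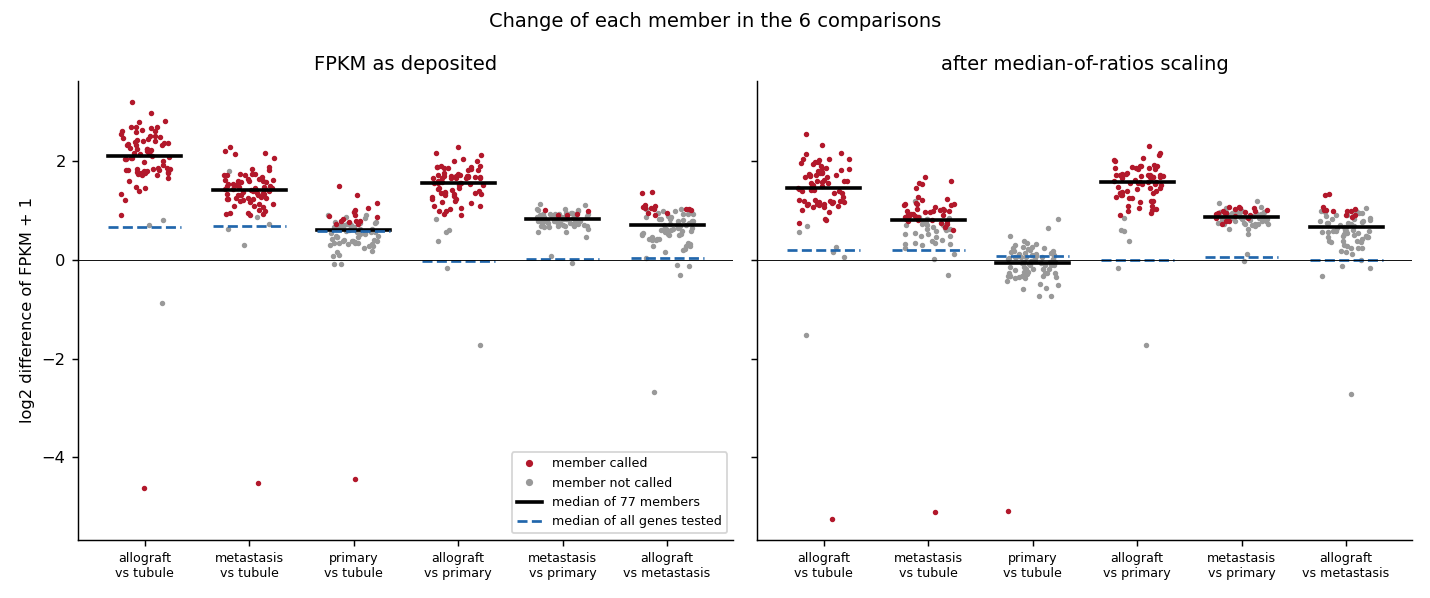
Each dot is the log2 change of 1 tested member in 1 of the 6 comparisons, red where called, with the members' median as a black line and the median of all 16313 genes as a dashed blue line. The members' median is 1.55 and that of all genes -0.02 for allograft against primary tumors, and both are 0.59 for primary tumors against proximal tubule cells.

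The mRNAs for the stalk of the large subunit, which recruits the GTPase elongation factors, rose in allograft against primary tumors, as did those of 71 of the 77 members. Of Rplp0, Rplp1 and Rplp2, only Rplp0 was called higher within the family, as given below. Rplp0 (ENSMUSG00000067274, chr5:115559467-115563727, plus strand, GRCm38), on which the stalk is built, stood at 2019, 1366 and 1428 FPKM in allograft tumors, 670, 601 and 585 in metastases, 506, 341 and 198 in primary tumors and 241, 288 and 246 in proximal tubule cells. All allograft tumors were above all other libraries, and primary tumors overlapped proximal tubule cells. Rplp0 rose by 2.28 ± 0.31 in allograft against primary tumors (adjusted p = 0.00051) and by 2.61 ± 0.31 against proximal tubule cells (adjusted p = 4.25e-05), with a change of 0.33 ± 0.31 in primary tumors against proximal tubule cells (adjusted p = 0.389).

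Rplp1 and Rplp2 form the dimers that hang from Rplp0. Rplp1 stood at 4617, 2745 and 2453 FPKM in allograft tumors, 2326, 2133 and 2117 in metastases, 1851, 1330 and 785 in primary tumors and 613, 696 and 706 in proximal tubule cells. Rplp2 stood at 1603, 1300 and 1039 FPKM in allograft tumors, 932, 755 and 743 in metastases, 569, 454 and 256 in primary tumors and 351, 379 and 353 in proximal tubule cells. Both were highest in the 3 allograft tumors, and primary tumor 3 was below every proximal tubule library for Rplp2 only. The rise in allograft against primary tumors was 1.34 ± 0.36 for Rplp1 (adjusted p = 0.013) and 1.67 ± 0.30 for Rplp2 (adjusted p = 0.00169). Without primary tumors 2 and 3 that of Rplp1 was no longer called (0.76, adjusted p = 0.191).

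Rpl12 (ENSMUSG00000038900, chr2:32961559-32965345, plus strand, GRCm38), which sits at the base of the stalk, had the largest rise of the family in allograft tumors against proximal tubule cells. It stood at 3202, 1703 and 1399 FPKM in allograft tumors, 1067, 971 and 869 in metastases, 769, 408 and 274 in primary tumors and 205, 234 and 207 in proximal tubule cells. No 2 groups overlapped. The changes against proximal tubule cells were 3.19 ± 0.39 in allograft tumors (adjusted p = 4.78e-05), 2.16 ± 0.39 in metastases (adjusted p = 0.000657) and 1.03 ± 0.39 in primary tumors (adjusted p = 0.0454). The last was 0.38 after median-of-ratios scaling (adjusted p = 0.448) and -0.074 after TPM rescaling, and it lost its call without any 1 library other than primary tumor 3, allograft tumor 1 or allograft tumor 3 (adjusted p = 0.152 without primary tumor 1). Allograft against primary tumors gave 2.15 ± 0.39 (adjusted p = 0.00191).

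Rpl5 and Rpl11 bind 5S ribosomal RNA together and, when free of ribosomes, bind Mdm2, the ubiquitin ligase of p53. Their order over the groups differed. Rpl5 stood at 1049, 659 and 784 FPKM in allograft tumors, 434, 394 and 378 in metastases, 340, 286 and 164 in primary tumors and 134, 173 and 175 in proximal tubule cells. Rpl11 stood at 683, 892 and 949 FPKM in allograft tumors, 968, 871 and 891 in metastases, 751, 577 and 385 in primary tumors and 335, 371 and 371 in proximal tubule cells. For Rpl5 every allograft tumor was above every metastasis, while for Rpl11 these groups overlapped and allograft tumor 1 was below primary tumor 1. Rpl5 rose by 1.69 ± 0.28 in allograft against primary tumors (adjusted p = 0.00126), where Rpl11 changed by 0.60 ± 0.26 (adjusted p = 0.0847). Against proximal tubule cells both rose in allograft tumors, Rpl5 by 2.35 ± 0.28 (adjusted p = 4.23e-05) and Rpl11 by 1.21 ± 0.26 (adjusted p = 0.0016). After median-of-ratios scaling the change of Rpl11 was 0.57 (adjusted p = 0.0732), and after TPM rescaling it turned to -0.21. The difference between the 2 genes was not tested directly, and their distances from the family are given below.

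Among small subunit proteins with roles outside the ribosome or in disease, Rps6 stood at 1089, 636 and 612 FPKM in allograft tumors, 520, 498 and 477 in metastases, 380, 278 and 201 in primary tumors and 179, 200 and 189 in proximal tubule cells. Rps19, the gene most often mutated in Diamond-Blackfan anemia in humans, stood at 2891, 1607 and 1467 FPKM in allograft tumors, 1186, 1149 and 1147 in metastases, 855, 642 and 399 in primary tumors and 381, 432 and 425 in proximal tubule cells. Rpsa, also known as the laminin receptor, stood at 4740, 3078 and 3397 FPKM in allograft tumors, 2286, 2219 and 2243 in metastases, 1681, 1203 and 881 in primary tumors and 706, 670 and 676 in proximal tubule cells. All 3 were highest in allograft tumors and second in metastases, and only Rps19 had a primary tumor within the range of proximal tubule cells or below. The rises in allograft against primary tumors were 1.44 ± 0.27 for Rps6 (adjusted p = 0.00254), 1.65 ± 0.33 for Rps19 (adjusted p = 0.00303) and 1.60 ± 0.29 for Rpsa (adjusted p = 0.00211). Rps4x, encoded on the X chromosome, rose by 1.89 ± 0.38 (adjusted p = 0.00323), with 2528, 1311 and 1241 FPKM in allograft tumors against 723, 433 and 259 in primary tumors. Without primary tumors 2 and 3 the adjusted p was 0.0597 for Rps6, 0.0599 for Rps19 and 0.0725 for Rps4x.

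In the large subunit, Rpl3, which reaches toward the peptidyl transferase centre, rose by 1.07 ± 0.27 in allograft against primary tumors (adjusted p = 0.00903), with 682, 571 and 676 FPKM in allograft tumors and 442, 321 and 198 in primary tumors. Rpl10, one of the last proteins to join the subunit, rose by 1.69 ± 0.35 (adjusted p = 0.00377), with 3159, 1716 and 1707 FPKM in allograft tumors and 924, 740 and 399 in primary tumors. Rpl39, which lines the exit tunnel for the nascent chain, rose by 1.85 ± 0.39 (adjusted p = 0.00428), with 3127, 1591 and 2010 FPKM in allograft tumors and 1037, 622 and 333 in primary tumors. Allograft and primary tumors did not overlap for any of these 3. Rpl22, which binds several cellular and viral RNAs, rose by 0.90 ± 0.27 (adjusted p = 0.0225), and lost its call without allograft tumor 1 (adjusted p = 0.0828) or primary tumor 3 (adjusted p = 0.0722).

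Levels within the family spanned a wide range. Rpl41 was the most abundant member per length, at 13010, 7361 and 6751 FPKM in allograft tumors, 4502, 4830 and 4296 in metastases, 3477, 2851 and 1392 in primary tumors and 1629, 1959 and 1966 in proximal tubule cells. Its mean over 12 libraries was 4502 FPKM, ahead of Rps27 (2078), Rps28 (2052), Rpsa (1982) and Rplp1 (1864). The lowest means among tested members were those of Rps15a (45.2 FPKM), Rpl29 (50.8), Rpl22 (80.3), Rps20 (91.5) and Rpl37 (215). These ranks rest on the members' own rows, without the near-identical copies described below. Summed with copies, Rpl3, Rps2 and Rps27 averaged 13637, 13026 and 11484 FPKM in allograft tumors, where Rpl41 averaged 9041. Rpl29 with its copies averaged 739 FPKM there. The order of the 77 members by FPKM was close within groups, with Spearman's rho across members of 0.824 to 0.954 among allograft tumors, 0.989 to 0.993 among metastases, 0.961 to 0.978 among primary tumors and 0.959 to 0.983 among proximal tubule cells. Between allograft tumors and proximal tubule cells rho was 0.699 to 0.831, the lowest of any pair of groups. Genes are not independent replicates, and all members of a library share its depth.

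The size of the change is also given by subunit and by promoter sequence, as a description without a test. In allograft against primary tumors the median change was 1.58 over the 46 large subunit members and 1.51 over the 31 small subunit members, and against proximal tubule cells 2.14 and 2.06. Among members with a promoter entry, the 20 with a pyrimidine run of at least 8 had a median change of 1.37 in allograft against primary tumors and the 37 tested members with a shorter run 1.60. Against proximal tubule cells these medians were 2.12 and 2.04 in allograft tumors, 1.61 and 1.34 in metastases and 0.72 and 0.51 in primary tumors. The correlation of change with coding length, across the 77 members, had a rho of 0.20 in allograft against primary tumors and 0.05 against proximal tubule cells.

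Since the level of the family moves with the scaling of a library, each member was also measured as its distance from the family median of the same library. The limma fit was repeated on these distances, with the adjustment over all genes. Many other genes change in distance when the family as a whole moves, which loosens the threshold for a call. Counts are therefore not comparable between comparisons. The shares of all genes are given for scale and are no background for moves within the family. In allograft tumors against proximal tubule cells 13 members moved up within the family and 9 down (14 and 10 at an unadjusted p under 0.05), against 7.68% of all genes up and 64.9% down. In allograft against primary tumors 4 moved up and 7 down, against 2.2% and 77.8%. In metastases against proximal tubule cells 5 moved up and 4 down, against 12.6% and 40.8%. The counts were 1 and 1 for primary tumors against proximal tubule cells (11.3% and 3.15%), 1 and 2 for allograft tumors against metastases (0.913% and 17.1%), and 0 and 0 for metastases against primary tumors (2.72% and 35.6%), where 0 and 2 passed at an unadjusted p under 0.05.

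Rpl12 moved farthest up in allograft tumors against proximal tubule cells. Its distance from the family rose by 1.16 ± 0.23 in allograft tumors (adjusted p = 0.000796) and by 0.78 ± 0.23 in metastases (adjusted p = 0.014), the second call being lost without metastasis 2 (adjusted p = 0.0564) or proximal tubule library 3 (adjusted p = 0.0534). Rpl34, a large subunit protein, followed with 0.94 (adjusted p = 0.0113) in allograft tumors, Rpl39 with 0.78 (adjusted p = 0.00763) and Rps12, a small subunit protein, with 0.76 (adjusted p = 0.00712). They also moved up in metastases against proximal tubule cells. The changes there were 0.80 for Rpl34 (adjusted p = 0.0334), 0.68 for Rpl39 (adjusted p = 0.0235) and 0.76 for Rps12 (adjusted p = 0.0111). With 1 library left out, as few as 2 members moved up in that comparison. The calls of Rpl12, Rpl39 and Rps12 in allograft tumors held with any 1 library left out, and that of Rpl34 was lost without proximal tubule library 1 (adjusted p = 0.0694). In allograft against primary tumors Rplp0 moved up by 0.77 ± 0.21 (adjusted p = 0.00508) and kept its call with any 1 library left out. Rpl12 (0.64, adjusted p = 0.0228) and Rpl18 (0.53, adjusted p = 0.0424) also moved up. Both lost the call without allograft tumor 1, allograft tumor 2 or primary tumor 2, and Rpl18 also without metastasis 2 or 3.

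Rps29, Rps27l, Rpl28, Rps21 and Rpl11 moved down within the family in allograft tumors against proximal tubule cells. Rps27l, Rpl28 and Rps21 did so in metastases too. Rps29, a small zinc-binding protein of the small subunit, stood at 1154, 1279 and 1448 FPKM in allograft tumors, 1666, 1571 and 1530 in metastases, 1535, 1107 and 584 in primary tumors and 707, 877 and 807 in proximal tubule cells. Every allograft tumor was thus below every metastasis, against the family's order. Its distance fell by 1.33 ± 0.27 against proximal tubule cells (adjusted p = 0.000787) and by 1.15 ± 0.27 against primary tumors (adjusted p = 0.00228), with the call kept when any 1 library was left out. Rps27l, the p53-induced paralog of Rps27, stood at 459, 267 and 186 FPKM in allograft tumors, 209, 205 and 189 in metastases, 178, 330 and 119 in primary tumors and 141, 189 and 163 in proximal tubule cells. Its distance fell by 1.23 ± 0.34 in allograft tumors (adjusted p = 0.0058) and by 1.08 ± 0.34 in metastases (adjusted p = 0.0176) against proximal tubule cells, while its FPKM was called in none of the 6 comparisons. The call in metastases was lost without metastasis 1 (adjusted p = 0.0564) or proximal tubule library 2 (adjusted p = 0.0519).

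Rpl28, of the large subunit, stood at 1143, 931 and 1753 FPKM in allograft tumors, 1085, 1079 and 892 in metastases, 808, 703 and 431 in primary tumors and 614, 702 and 673 in proximal tubule cells. Allograft tumor 2 was within the range of the metastases and allograft tumor 3 far above it. The distance of Rpl28 fell by 1.13 ± 0.30 in allograft tumors against proximal tubule cells (adjusted p = 0.00493), and without allograft tumors 1 and 2 the value was -0.42 (adjusted p = 0.292). That of Rps21, of the small subunit, fell by 0.70 ± 0.23 (adjusted p = 0.0145) and that of Rpl11 by 0.81 ± 0.29 (adjusted p = 0.0226). Without allograft tumor 1 the value for Rpl11 was -0.47 (adjusted p = 0.115), and it also lost its call without proximal tubule library 1 (adjusted p = 0.0616) or 3 (adjusted p = 0.0565). In metastases against proximal tubule cells the distance changed by -0.77 for Rpl28 (adjusted p = 0.0478) and by -0.67 for Rps21 (adjusted p = 0.0245). With 1 library left out, as few as 1 member moved down in that comparison.

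**Figure D4:**
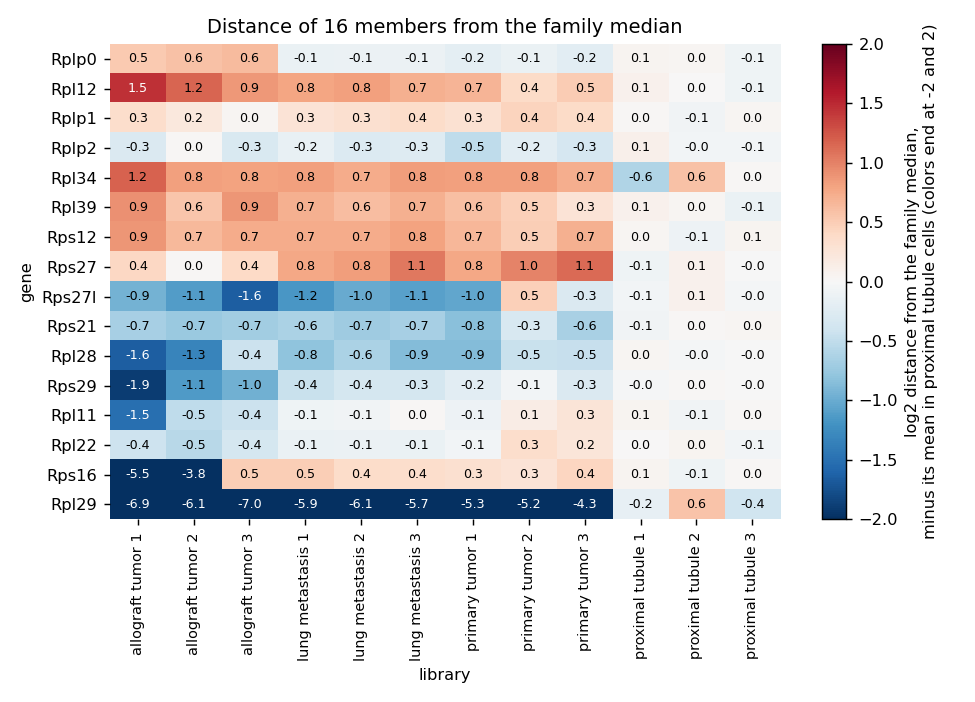
Colors give the distance of 16 members from the family median of the same library, in log2, less the mean of the 3 proximal tubule libraries, and end at -2 and 2. Rpl29 is low in all 9 tumors and Rps16 in allograft tumors 1 and 2 only. Rpl12 is above its proximal tubule mean in all 9 tumors and highest in the allograft tumors.

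Rps16 (ENSMUSG00000037563, chr7:28350652-28353155, plus strand, GRCm38), whose tail contacts the tRNA in the P site, separated the allograft libraries from each other. It stood at 30.3, 65.3 and 1267 FPKM in allograft tumors, 1028, 828 and 799 in metastases, 708, 444 and 306 in primary tumors and 238, 260 and 263 in proximal tubule cells. Allograft tumors 1 and 2 were below all other libraries of the series and allograft tumor 3 was above them all. The change was -1.73 ± 1.05 against primary tumors (adjusted p = 0.208) and -0.88 ± 1.05 against proximal tubule cells (adjusted p = 0.468). Its distance from the family was called lower, with a change of -3.25 ± 1.01 against primary tumors (adjusted p = 0.0103) and of -2.91 ± 1.01 against proximal tubule cells (adjusted p = 0.0199). The first call was lost without allograft tumor 1 (adjusted p = 0.0518), and the second without allograft tumor 1 (adjusted p = 0.104) or 2 (adjusted p = 0.0675). With allograft tumor 3 alone the distances were 0.15 (adjusted p = 0.679) and 0.49 (adjusted p = 0.205), and the lone library is then assumed to vary like the other groups. No other row of the table met the threshold for a near-identical copy of Rps16.

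Rpl29 (ENSMUSG00000048758, chr9:106429454-106431568, plus strand, GRCm38), a large subunit protein also known to bind heparin, was the only member called lower on deposited FPKM. It stood at 7.07, 8.20 and 3.68 FPKM in allograft tumors, 7.09, 5.61 and 7.13 in metastases, 8.61, 5.74 and 6.77 in primary tumors and 138, 279 and 133 in proximal tubule cells. Every tumor was below every proximal tubule library. The changes against proximal tubule cells were -4.62 ± 0.32 in allograft tumors (adjusted p = 3.09e-06), -4.52 ± 0.32 in metastases (adjusted p = 2.55e-06) and -4.45 ± 0.32 in primary tumors (adjusted p = 8.24e-06). This is uncertain as a change of the gene, because the processed pseudogene Gm13841 (chr5:115801677-115802159, GRCm38) aligns to Rpl29 over 483 bases at 99.4% identity, and the sign turned when copies were added.

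Gm13841 stood at 823, 617 and 630 FPKM in allograft tumors, 564, 607 and 548 in metastases, 486, 454 and 280 in primary tumors and 153, 1.76 and 162 in proximal tubule cells. It was high in every tumor, where Rpl29 was low. In proximal tubule library 2, the only one in which the pseudogene was near 0, Rpl29 stood at 279 FPKM, above the 138 and 133 of the other proximal tubule libraries. Copies held 98.0 to 99.5% of the summed FPKM of Rpl29 and its copies in tumors, and 52.6%, 0.667% and 54.9% in proximal tubule cells. The sum was 873, 644 and 701 FPKM in allograft tumors, 593, 647 and 585 in metastases, 520, 479 and 331 in primary tumors and 291, 281 and 295 in proximal tubule cells. Metastasis 2 lay just above allograft tumor 2, and no other libraries of neighbouring groups overlapped. The sum rose against proximal tubule cells by 1.34 in allograft tumors (adjusted p = 0.000247), 1.07 in metastases (adjusted p = 0.00116) and 0.59 in primary tumors (adjusted p = 0.0379).

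The letters by which the pair can be told apart are shown because a read over the aligned bases that holds none of them matches both. Over the aligned bases Gm13841 differed from Rpl29 at 3 places, C72A, C300T and T423C, with Rpl29's base first and positions counted from 1 at the first aligned base. Each window of 40 bases below comes from the GENCODE M21 transcripts and has the differing base in capitals.
Rpl29 at 72: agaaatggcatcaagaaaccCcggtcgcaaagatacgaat
Gm13841 at 72: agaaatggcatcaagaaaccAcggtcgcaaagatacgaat
Rpl29 at 300: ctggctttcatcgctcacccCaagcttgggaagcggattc
Gm13841 at 300: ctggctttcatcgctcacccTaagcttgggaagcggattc
Rpl29 at 423: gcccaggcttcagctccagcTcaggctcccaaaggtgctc
Gm13841 at 423: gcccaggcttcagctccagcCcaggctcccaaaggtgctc

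**Figure D5:**
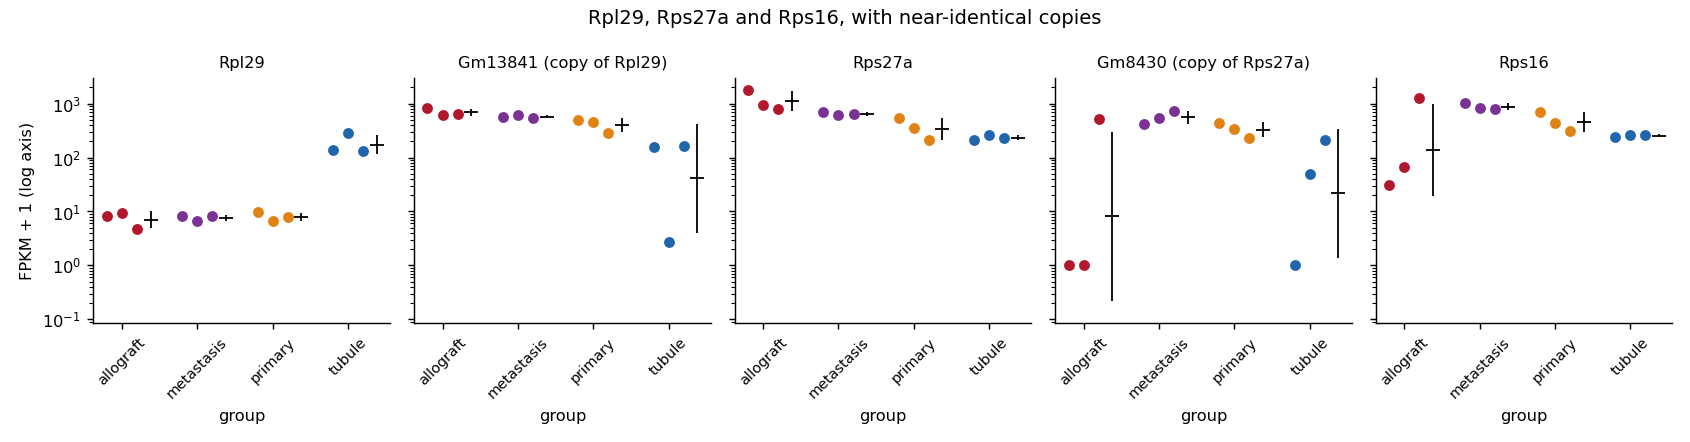
Each dot is 1 library, as FPKM + 1 on a log axis, for Rpl29, Gm13841, Rps27a, Gm8430 and Rps16, and bars give the group mean ± SD on the log scale (n = 3). Rpl29 is under 10 FPKM in all tumors while Gm13841 is at 280 or more, and Rps16 falls under 100 FPKM in 2 allograft tumors.

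Copies touched other members too. In all 21 near-identical features of 11 members were found at 95% identity over at least 50% of the copy, of which 7 were listed at 0 in every library. The protein-coding Rps27rt matched Rps27 fully over 341 bases and held 62.4 to 76.1% of their sum. Rpl3-ps2 held 92.3 to 95.6% of the sum with Rpl3, so the level of Rpl3 above is a small part of what aligns to it. Gm8430, a copy of Rps27a, which is made as a fusion with ubiquitin, stood at 0, 0 and 527 FPKM in allograft tumors, 423, 538 and 740 in metastases, 437, 341 and 231 in primary tumors and 0, 47.7 and 206 in proximal tubule cells. Rps27a itself stood at 1819, 925 and 802 FPKM in allograft tumors, 689, 605 and 629 in metastases, 530, 349 and 208 in primary tumors and 209, 257 and 228 in proximal tubule cells. Gm8430 was at 0 in the same allograft libraries, 1 and 2, in which Rps16 was low.

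With every member summed with its copies, 74 members were called higher and 0 lower in allograft tumors against proximal tubule cells (74 and 0 at an unadjusted p under 0.05), against 52.3% of all genes higher. In allograft against primary tumors 72 were called higher (20.5%), in metastases against proximal tubule cells 72 (54%), in primary tumors against proximal tubule cells 18 (48.2%), in metastases against primary tumors 5 (11.3%) and in allograft tumors against metastases 15 (10.4%). Single members changed more than these counts. Rps27, a zinc-binding protein of the small subunit, stood at 4305, 2149 and 2806 FPKM in allograft tumors, 2916, 2714 and 3048 in metastases, 2293, 1725 and 1174 in primary tumors and 506, 690 and 609 in proximal tubule cells. It was the member with the largest rise in primary tumors against proximal tubule cells (1.48 ± 0.34, adjusted p = 0.00468), and its distance from the family rose there by 0.97 ± 0.24 (adjusted p = 0.0152). That call was lost without any 1 of the proximal tubule libraries, and summed with Rps27rt the distance was 0.63 (adjusted p = 0.108).

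The 3 paralogs that failed the filter are expressed mainly in testis (Rpl10l and Rpl39l) or in striated muscle (Rpl3l). Rpl10l was at most 0.30 FPKM and Rpl39l at most 0.517 FPKM in any library. Rpl3l stood at 1.76, 1.75 and 0.878 FPKM in allograft tumors, 0.302, 0.727 and 0.540 in metastases, 0.137, 0.830 and 0.217 in primary tumors and 0, 0.176 and 0 in proximal tubule cells. All allograft tumors were above the other libraries, at levels that rest on few fragments, and no test was made.

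Ribosomal proteins that the naming pattern misses were counted beside the set. These 7 included Fau, Rps3a1, Rack1, Rpl36al, Rpl22l1 and Rpl7l1, and all 7 rose in allograft tumors against both primary tumors (median 1.49, with 20.5% of all genes higher) and proximal tubule cells (median 2.10, with 52.2% higher). After median-of-ratios scaling 5 of the 7 were called against proximal tubule cells (37.4% of all genes higher). Rpl36al (adjusted p = 0.124) and Rpl7l1 (adjusted p = 0.183) were not. After TPM rescaling 3 of the 7 were called (21.5% of all genes higher). Rack1, the scaffold protein on the small subunit, averaged 1430 ± 716 FPKM in allograft tumors and 331 ± 153 in primary tumors (SD, n = 3 each), a change of 2.10 ± 0.38 (adjusted p = 0.00193). Against primary tumors 4 of the 7 were called after TPM rescaling (10.6% of all genes higher) and 2 without primary tumors 2 and 3. Of 9 annotated pseudogenes of ribosomal proteins 5 were tested, and 3 rose in allograft against primary tumors.

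Genes that build and serve ribosomes were counted in allograft against primary tumors, against a background of 20.5% of all genes higher and 21.1% lower. Among 42 assembly factors 31 were called higher, with a median of 1.09, among them Nop58 and Nop56, core proteins of the box C/D particles that methylate ribosomal RNA. Nop58 averaged 123 ± 43.9 FPKM in allograft tumors and 22.8 ± 11.6 in primary tumors, a change of 2.42 (adjusted p = 0.000408), and Nop56 averaged 138 ± 4.64 FPKM in allograft tumors and 32.4 ± 16.1 FPKM in primary tumors (2.16, adjusted p = 0.000282, and 1.42 without primary tumors 2 and 3). Of 16 elongation factors and other genes with TOP mRNAs 11 were called higher (median 1.11), led by Npm1, a nucleolar chaperone, at 1033 ± 322 FPKM in allograft tumors and 205 ± 92.8 in primary tumors (2.38, adjusted p = 0.000433). That count was 7 after TPM rescaling (10.6% of all genes higher), and it was lower still without primary tumors 2 and 3. Of 29 initiation factors 16 were called higher and 1 lower (median 0.79), led by Eif4ebp1, an mTOR-controlled brake on the cap-binding factor, at 157 ± 27.7 FPKM in allograft tumors and 20.6 ± 12.3 FPKM in primary tumors (3.00, adjusted p = 0.000204).

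Mitochondrial ribosomal proteins, which serve a separate ribosome, were counted the same way. Of 76 tested, 10 were called higher and 3 lower in allograft against primary tumors, against 20.5% and 21.1% of all genes, with a median of 0.24. TPM rescaling gave 1 higher and 7 lower, against 10.6% and 22.6%. The largest fall was that of Mrpl50 (-1.29, adjusted p = 0.0111), a protein of the large mitochondrial subunit, and it lost its call without primary tumors 2 and 3 (-0.66, adjusted p = 0.0703). Against proximal tubule cells 27 were higher and 5 lower on deposited FPKM, against 52.2% and 16.9% of all genes. After median-of-ratios scaling 6 were higher and 16 lower, against 37.4% and 28.1%. Among 15 regulators of ribosomal protein mRNAs 5 were called higher in allograft against primary tumors (20.5% of all genes). After TPM rescaling 2 were (10.6% of all genes), and fewer than 5 were called without primary tumors 2 and 3. Myc, which drives ribosome production, averaged 26.1 ± 17.5 FPKM in allograft tumors and 6.69 ± 4.00 in primary tumors (1.77, adjusted p = 0.0117), a call lost without primary tumors 2 and 3 (0.99, adjusted p = 0.264). Akt1, a kinase upstream of mTOR, rose by 1.22 (adjusted p = 0.00266), a call also lost without them (0.72, adjusted p = 0.0804).

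On deposited FPKM, proliferation genes had the order of the family over the groups, without overlap between groups. Macrophage and fibroblast genes, given below, were also lowest in proximal tubule cells and reached their highest sums in allograft tumors. For both lists the primary tumors overlapped the other tumor groups. The 11 proliferation genes summed to 672 to 1258 FPKM in allograft tumors, 382 to 432 in metastases, 298, 82.1 and 75.1 in primary tumors 1 to 3 and 42.8 to 46.5 in proximal tubule cells. All 11 were called higher in allograft against primary tumors, against 20.5% of all genes. Top2a, the topoisomerase of dividing cells, rose by 3.94 in the limma fit (adjusted p = 0.0012), and by 2.06 without primary tumors 2 and 3. Proximal tubule markers ran the other way, and Slc34a1 itself stood at 1.37, 0.970 and 0.120 FPKM in allograft tumors, 0.0169, 0.0609 and 0.0951 in metastases, 6.17, 833 and 166 in primary tumors and 866, 893 and 1040 in proximal tubule cells. Primary tumor 1, with the highest family median of its group, thus had little Slc34a1, and primary tumors 2 and 3 had much. Between the latter the order was the same for both, as primary tumor 2 had more Slc34a1 and the higher family median (460 against 283 FPKM).

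Markers of immune, stromal, blood and lung cells were summed in the same way. The 6 macrophage genes summed to 858 to 3102 FPKM in allograft tumors, 793 to 1080 in metastases, 190 to 1188 in primary tumors and 5.34 to 6.73 in proximal tubule cells, and the 4 fibroblast genes to 681 to 1832 FPKM in allograft tumors, 312 to 415 in metastases, 109 to 686 in primary tumors and 0.948 to 1.80 in proximal tubule cells. The 4 T cell genes summed to 3.46 to 12.01 FPKM in allograft tumors, 19.2 to 30.5 in metastases, 18.7 to 24.6 in primary tumors and at most 0.299 in proximal tubule cells, where Cd3g was at 0. The 5 B and plasma cell genes summed to 9.71 to 59.6 FPKM in allograft tumors, 128 to 228 in metastases, 121 to 441 in primary tumors and at most 0.817 in proximal tubule cells, with Cd79b, Ms4a1 and Ighm at 0 in the last. Endothelial genes (4) summed to 42.2 to 80.5 FPKM in allograft tumors, 180 to 313 in metastases, 128 to 153 in primary tumors and 32.3 to 48.8 in proximal tubule cells. Erythroid genes (4 of 5 in the table) summed to 486 to 1559 FPKM in allograft tumors, 1802 to 4913 in metastases, 215 to 1387 in primary tumors and 32.2 to 48.3 in proximal tubule cells. Lung epithelial genes (4) summed to 11103 to 17981 FPKM in metastases and at most 8.96 FPKM in any other library, with Sftpc, Sftpa1 and Scgb1a1 at 0 in proximal tubule cells. The part of these cells and of division in the levels of the ribosomal protein genes was not tested.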

How the data were processed

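Bulk RNA from 12 mouse libraries was analysed. The deposited table holds 24432 genes in FPKM, which the authors computed, and the values were used as deposited. Salmon, bcl2fastq 2.17.1.14 and the builds GRCm38 and mm10 are listed, per the submitters' processing notes. No source used here gives the version of Salmon, the gene lengths or the library type. Identifiers were matched to GENCODE M21 (24222 of 24432). Depth was estimated from steps between low values of long transcripts (tolerance 0.03), since none is stated.

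The filter asked for 1 FPKM in 3 or more libraries (16313 genes), and values were taken as log2(FPKM + 1). A model of all 4 groups without covariates was fitted in limma 3.58.1 (R 4.3.3), with eBayes following the trend of variance on mean and Benjamini-Hochberg adjustment over all genes of each of 6 comparisons. A second limma fit used each library's distance from its family median. The procedure was tested on simulated data. Near-identical copies were sought with blastn 2.17.0 (95% identity, 50% of the copy), and promoters came from RefSeq. Python 3.11.15 was used for the rest.

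The members and lists were chosen with earlier results of these data known. Named members are fixed anchors (stalk proteins, Rpsa, Rps6, Rps19, Rps4x, Rpl5, Rpl11, Rpl10, Rpl41, Rpl22, Rps27, Rpl3, Rpl39 and their paralogs), the 3 largest called changes in each direction per comparison and fit, the 5 highest and 5 lowest means and the 5 largest spreads within the family. Of other lists the 2 largest called changes per comparison were eligible. Rps27a, Gm8430 and the members listed in counts were chosen after their values were seen. A few members that enter the counts are not reported by name here. Alternatives were other scalings, pseudocounts, filters, centring, fits of 2 groups, a replicate block and leaving out libraries. Sums with copies and the removal of allograft tumors 1 and 2 together were chosen after seeing the data.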

Additional observations from a re-analysis of the deposited data

How the results depend on the processing

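Counts are members called higher unless said otherwise, and no cause of a difference was tested. The share of all genes called in each setting is not given beside them, so a changed count cannot be told from a general change in power. TPM sums include Mir6236, which lowers tumor values relative to proximal tubule cells. Primary tumors against proximal tubule cells gave 0 after median-of-ratios scaling (median -0.065), 0 higher and 16 lower after TPM rescaling (median -0.52), 1 after quantile normalization, 9 with no filter, 2 with only the 2 groups compared and 57 without primary tumors 2 and 3 (median 1.09). Metastases against proximal tubule cells gave 41 (median-of-ratios, median 0.80) and 9 (TPM, median 0.35), with a quantile median of 0.87. Allograft tumors against proximal tubule cells gave 36 (TPM, median 0.67), with medians of 1.45 (median-of-ratios) and 1.14 (quantile). Summing with copies left 0 members lower in these 3. Metastases against primary tumors gave 20 (median-of-ratios), 13 (TPM), 8 (quantile), 1 (no filter), 0 (2 groups) and 0 without primary tumors 2 and 3 (median 0.30). Allograft against primary tumors gave 29 (2 groups), 26 without primary tumors 2 and 3 (median 1.01) and 42 without allograft tumors 1 and 2, with a quantile median of 0.98. Allograft tumors against metastases gave 2 (TPM, median 0.33), 1 (quantile, median 0.29), 9 (no filter), 32 without primary tumors 2 and 3 and 1 without allograft tumors 1 and 2. For distances from the family, primary tumors against proximal tubule cells gave 2 up at a pseudocount of 0.1, 2 at a filter of 5 FPKM, 0 with only 2 groups, and 2 up and 4 down without primary tumors 2 and 3. Metastases against proximal tubule cells gave 15 up and 15 down (2 groups) and 8 and 10 without primary tumors 2 and 3. Allograft tumors against proximal tubule cells gave 4 and 3 without allograft tumors 1 and 2, and metastases against primary tumors 1 down at a pseudocount of 5. Allograft against primary tumors gave 0 and 3 (2 groups), 2 down without primary tumors 2 and 3, 9 up with centring on the mean, 7 up with copies, and 0 and 2 without allograft tumors 1 and 2. Allograft tumors against metastases gave 2 up (pseudocount 0.1), 0 up (pseudocount 5 or no filter), 2 and 1 (2 groups), 6 and 6 without primary tumors 2 and 3, 2 up (mean), 3 up with copies, and 0 and 0 without allograft tumors 1 and 2. Leaving out single libraries gave 2 to 50 (primary against proximal tubule, medians 0.32 to 0.90), 66 to 73 (metastasis against proximal tubule, 1.34 to 1.46), 72 to 74 (allograft against proximal tubule, 1.90 to 2.26), 0 to 62 (metastasis against primary, 0.52 to 1.07), 63 to 73 (allograft against primary, 1.25 to 1.81) and 3 to 25 (allograft against metastasis, 0.45 to 0.83). Members lower then numbered 1 to 1, 1 to 1, 1 to 2, 0 to 0, 0 to 1 and 0 to 1 in this order of comparisons. Within the family the numbers up were 0 to 3, 2 to 7, 6 to 17, 0 to 0, 1 to 7 and 0 to 4, and down 1 to 2, 1 to 10, 5 to 11, 0 to 5, 5 to 15 and 0 to 6. Correlations of same-numbered libraries, as deviations from their group means, were all under 0.1 (-0.04 to 0.10 between groups). Samples from 1 animal need not correlate on this measure, so whether the replicate numbers pair the samples remains unknown. With a replicate block the counts were 20, 72, 73, 9, 70 and 17. Outside the family, allograft against primary tumors gave 4 (TPM) and 2 (without primary tumors 2 and 3) of the proteins outside the naming pattern, 7 and 4 TOP genes, 2 and 0 initiation factors lower, 1 higher and 7 lower (TPM) and 0 lower (without primary tumors 2 and 3) mitochondrial proteins, and 2 higher and 1 lower (TPM), 1 lower (median-of-ratios) and 2 higher (without primary tumors 2 and 3) regulators. Allograft tumors against proximal tubule cells gave, after TPM rescaling, 3 outside the pattern, 3 higher and 3 lower TOP genes, 5 and 7 initiation factors, 9 and 9 assembly factors, 0 and 53 mitochondrial proteins, 0 and 11 regulators and 3 pseudogenes higher. After median-of-ratios scaling they gave 14 initiation factors higher, 1 assembly factor lower, 6 and 16 mitochondrial proteins and 2 and 5 regulators. Without primary tumors 2 and 3 they gave 8 mitochondrial proteins and 2 regulators lower. Signs turned after TPM rescaling in primary tumors against proximal tubule cells for Rplp2 (-0.94), Rpl12 (-0.074), Rpsa (-0.29), Rpl10 (-1.04), Rps27l (-0.88), Rpl3 (-0.39), Rps24 (-0.20), Rps10 (-0.34) and Rpl36 (-0.72), in metastases for Rps29 (-0.067) and Rpl36 (-0.11), and in allograft tumors for Rpl11 (-0.21), Rpl28 (-0.53, and -0.32 after quantile normalization) and Rps21 (-0.095). With copies Rpl29 turned to 0.59 (primary), 1.07 (metastasis) and 1.34 (allograft) against proximal tubule cells and 0.75 in allograft against primary tumors. Without allograft tumors 1 and 2, Rps16 turned to 2.32 against proximal tubule cells and 1.47 against primary tumors, and its distance from the family to 0.49, 0.15 and 0.083 against proximal tubule cells, primary tumors and metastases. Values under about 1 FPKM rest on few fragments and are limited by depth.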

Other observations

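Rps4l, the processed pseudogene that matched the naming pattern and was left out, ran in another order than the family. It stood at 1.99, 5.74 and 1.89 FPKM in allograft tumors, 19.5, 19.6 and 18.5 in metastases, 13.8, 8.81 and 15.7 in primary tumors and 5.30, 2.28 and 2.86 in proximal tubule cells. The metastases were the highest group and every primary tumor was above every allograft tumor. It was among the genes fitted, and no test of it is given here.

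The sum of Rps2 and its 2 copies also stood apart. It was 15121, 10429 and 13527 FPKM in allograft tumors, 4664, 4581 and 4269 in metastases, 3392, 3033 and 1523 in primary tumors and 2775, 4387 and 4182 in proximal tubule cells. Allograft tumors were above all other libraries, and 2 of the 3 proximal tubule libraries were above all primary tumors. Rps2 is a protein of the small subunit, and most of the sum was held by the pseudogene Rps2-ps10.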
